A study of Homo sapiens with 14 samples.

Results

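Hyaluronan is a long unbranched sugar polymer that fibroblasts spin out into the matrix around them. It is made at the plasma membrane by hyaluronan synthases, is cross-linked and decorated by binding proteins, is held at the cell surface by receptors and is cut by hyaluronidases and hyaluronan-depolymerising proteins. Long chains are known for keeping tissue hydrated and cells apart, while short fragments are known for signalling in inflamed lung. The 8 genes described here were chosen by name as a listed set: the synthases HAS1, HAS2 and HAS3, the binding proteins TNFAIP6 and PTX3, the receptor CD44, and the turnover proteins CEMIP (KIAA1199 in older annotations) and HYAL2. All 8 were listed in every table, out of 59861 gene symbols in the young and old tables, 54628 in the wild type and knockdown tables and 38716 in the ICM tables.

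Poly(A)-selected RNA was sequenced from IMR90, a widely used line of primary human fetal lung fibroblasts with a limited life span in culture, in 7 groups. I79 young and I10 young were proliferating low-passage cells of 2 isolates of the line, and I79 old and I10 old were the same isolates passaged into replicative senescence. I79 ICM cells were low-passage I79 cells given inflachromene (ICM), an inhibitor that targets HMGB1 and HMGB2, abundant chromatin proteins, at a dose and for a time that the labels do not give. WT is a wild type genotype and HMGB2 KD an HMGB2 knockdown, which the study's results state was made by siRNA. Both are labelled with neither isolate nor passage, and whether WT received a control siRNA is not given. Each young or old group was available as 1 table for its 2 titled replicates and was treated as a pooled value with no SD, so old against young rests on 2 isolates of 1 line. ICM, WT and HMGB2 KD had 2 libraries each. They are labelled as replicates, and the labels do not say whether they came from separate cultures. The study's methods describe independent cultures for its ribosome profiling and the RNA taken beside it, without tying these libraries to them. If they were not separate cultures, p-values measure only the spread between these libraries.

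Totals ranged from 10971132 reads in an ICM library to 41168932 counts in an HMGB2 KD library. All 10 fibroblast markers (among them COL1A1, DCN and PDGFRB) were detected in every group, and the summed level of the epithelial list stayed at or below 0.752 CPM (counts scaled to library size) and that of the leukocyte list at or below 1.40 CPM in every table. The endothelial list summed to 53.3 to 221 CPM, nearly all of it TEK, with the endothelial cadherin CDH5 at 0 throughout. HMGB2, the targeted gene, fell from 929 and 1021 counts in WT to 118 and 145 counts in HMGB2 KD (log2 fold change -2.99, SE 0.16, edgeR quasi-likelihood adjusted p 8.28e-07). A gene counted as called when its adjusted p was below 0.01 and its log2 fold change lay beyond 0.6 in either direction, and CPM values are scaled by TMM (a trimmed mean of ratios between libraries) unless stated.

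Over both isolates CEMIP rose 18.3-fold and HAS2 2.90-fold in old cells. CEMIP was also the only member called after HMGB2 knockdown, but the other way, falling to 0.400 of its WT level. The DESeq2 Wald test did not call this fall (adjusted p 0.0203). WT, of unstated isolate and passage, was not at the young level. On genes shared by all tables and without TMM, CEMIP stood at 2140 CPM in WT, 99.6 in I79 young and 1175 in I79 old. HMGB2 stood there at 29.5, 139 and 38.8 CPM. These tables were counted in different ways. Of the 7 members that could be tested (HAS1 had no counts), 2 were called in old against young, both higher, where 9.36% of 15134 tested genes were called (5.66% higher and 3.7% lower). After HMGB2 knockdown 1 of 7 was called, lower, where 5.2% of 15338 tested genes were called (2.86% higher and 2.34% lower). The median log2 fold change over the 7 members was 0.83 in old against young and 0.08 after knockdown, against -0.0090 and 0.0018 over all tested genes. Values in the 2 young and the 2 old tables did not overlap for any of the 7 members, which was the case for 73.9% of all tested genes. Knockdown and WT values were separate for 6 of the 7, all but HYAL2, against 53.8% of all tested genes. Within I79 alone 6 of the 7 lay past 0.6 on the log2 scale, 5 higher and 1 lower, where 41.3% of all tested genes did (21.7% higher and 19.7% lower). Within I10 it was 5 of 7, 4 higher and 1 lower, where 37.4% of genes did (18.6% higher and 18.8% lower). Bulk RNA cannot tell fewer cells that express a gene from less of its RNA per cell.

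**Figure D1:**
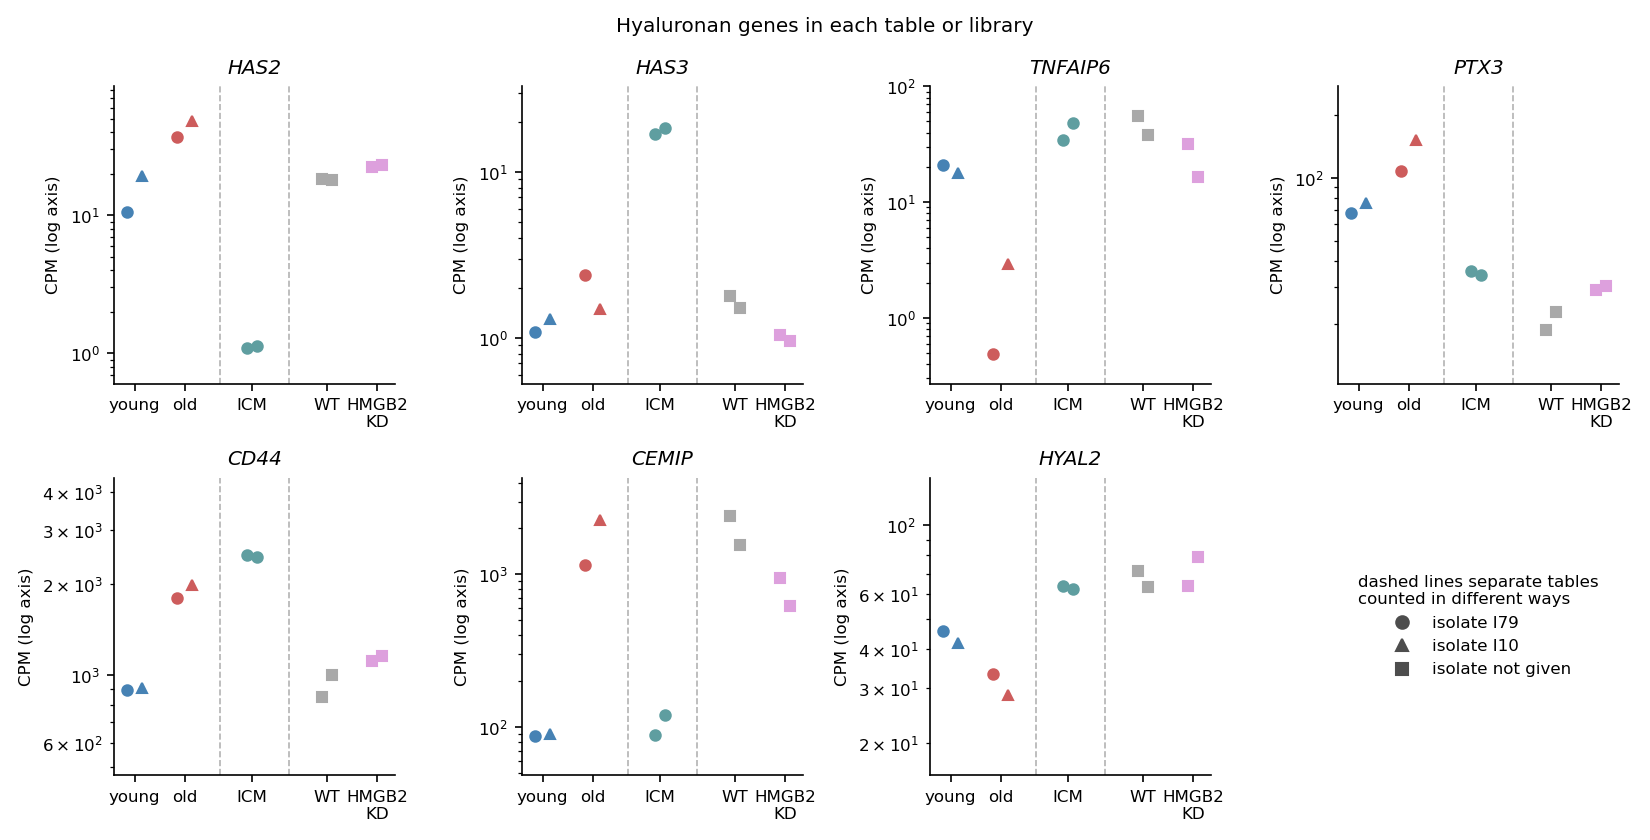
CPM on log axes (TMM-scaled within the young and old tables and within WT and HMGB2 KD) for the 7 hyaluronan genes with counts, 1 panel per gene and 1 point per table or library (circles isolate I79, triangles isolate I10, squares isolate not given). In both isolates the old point lies far above the young one for CEMIP (1158 against 87.4 CPM in I79) and far below it for TNFAIP6 (0.488 against 20.8 CPM in I79), and dashed lines separate tables that were counted in different ways and should not be read across as treatment effects.

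Among the synthases, HAS1 was listed with 0 counts in all 10 tables and libraries. A count of 0 allows up to 3 counts, which is between 0.0729 CPM in the deepest library and 0.273 CPM in the shallowest, so any HAS1 expression lay under that limit. This limit, like the intervals below, covers counting error only. HAS1 lies on chromosome 19 (52216365 to 52227244, minus strand, GRCh37).

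HAS2 is the synthase usually found most active in fibroblasts, and makes very long chains. It lies on the minus strand of chromosome 8 and has 1 annotated transcript with reads, of 4 exons. It was counted 166 times in I79 young and 677 times in I79 old (10.6 and 36.7 CPM). In I10 it was counted 371 times in the young and 866 times in the old table (19.3 and 47.9 CPM). The young tables differed from each other by less than either differed from the old table of its own isolate. HAS2 rose in old cells by 1.54 on the log2 scale (SE 0.17, edgeR quasi-likelihood adjusted p 0.0065), by 1.79 within I79 (95% counting interval 1.54 to 2.04) and by 1.31 within I10 (1.13 to 1.49). Without isolate as a covariate the adjusted p was 0.0211, which misses the threshold. In WT it stood at 18.1 and 18.1 CPM (621 and 676 counts), and the HMGB2 KD libraries had 22.4 and 23.0 CPM (819 and 919 counts). The knockdown libraries lay above both WT libraries, but the log2 fold change of 0.33 (SE 0.14, edgeR quasi-likelihood adjusted p 0.159) did not pass.

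HAS3, the synthase known for shorter chains, was low in all but the ICM libraries. It lies on chromosome 16 (69139556 to 69152622, plus strand, GRCh37), where CHTF8 and DERPC overlap it on the other strand. It had 17 counts in the young and 44 in the old table of I79 (1.09 and 2.39 CPM), and 25 and 27 in those of I10 (1.30 and 1.49 CPM). Only I79 differed by more than its counting interval, at 1.13 on the log2 scale (0.30 to 2.03), while I10 gave 0.20 (-0.64 to 1.04), and the fit over both isolates gave 0.66 (SE 0.43, edgeR quasi-likelihood adjusted p 0.292). WT held 61 and 56 counts and HMGB2 KD 38 and 38 counts (1.78 and 1.50 against 1.04 and 0.953 CPM). The knockdown libraries were both the lower ones, with a log2 fold change of -0.72 that did not pass (SE 0.40, edgeR quasi-likelihood adjusted p 0.303).

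Per transcript length, which allows levels of different genes to be set side by side within a table, HAS2 stood above HAS3 in all 8 young, old, WT and HMGB2 KD columns. In TPM (abundance scaled to transcript length and library size) the HAS2 to HAS3 ratio was 8.43 in I79 young and 15.0 in I10 young, and 12.2 in I79 old and 32.3 in I10 old. In CPM per kilobase it was 9.35 and 11.1 in the WT libraries and 19.8 and 22.2 in the HMGB2 KD libraries. The ICM libraries had the reverse order, with HAS3 16.9 and 17.6 times HAS2. In this ratio HAS3 rests on 17 to 61 counts outside the ICM libraries, and in the ICM libraries HAS2 rests on 14 and 12 reads.

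**Figure D2:**
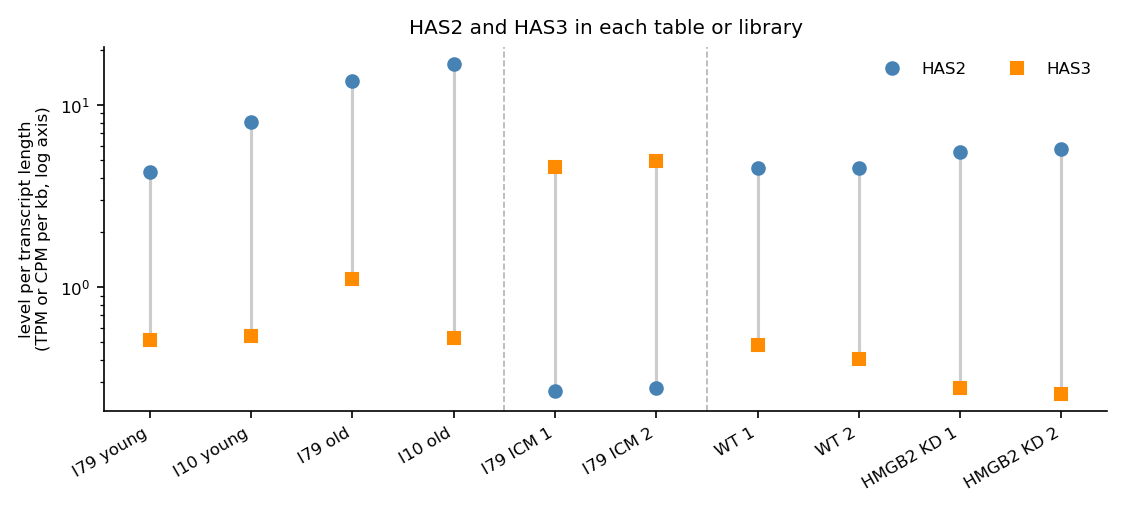
Level per transcript length on a log axis (TPM in young and old tables, CPM per kilobase elsewhere) of HAS2 (circles) and HAS3 (squares) in each of the 10 columns, joined by a line; dashed lines separate tables counted in different ways. HAS2 is the upper point in 8 columns and the lower one in both ICM libraries, where HAS3 is 16.9 and 17.6 times HAS2.

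Of the binding proteins, TNFAIP6 encodes TSG-6, a secreted protein induced by inflammatory cytokines that transfers the heavy chains of inter-alpha-inhibitor onto hyaluronan. It lies on chromosome 2 (152214106 to 152236560, plus strand, GRCh37). The 250 bases before its RefSeq start are shown because TNFAIP6 had the largest drop in old tables among the members, a choice made after its values were seen. The capitals mark its match to the AP-1 motif TGANTCA, at positions -129 to -123 from the start.
TNFAIP6 promoter, GRCh37 chr2:152213856-152214105, plus strand: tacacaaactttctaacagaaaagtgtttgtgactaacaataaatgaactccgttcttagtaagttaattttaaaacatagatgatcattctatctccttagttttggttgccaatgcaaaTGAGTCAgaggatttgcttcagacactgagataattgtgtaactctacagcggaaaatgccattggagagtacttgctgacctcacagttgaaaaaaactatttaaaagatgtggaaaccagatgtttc
The same search, on either strand and counting overlapping matches, was made for the TATA box with letters TATAAA and for the CCAAT box. It was also made for the GC box with letters GGGCGG and the kappaB motif with letters GGGRNWYYCC. In these letters N is any base, R is A or G, W is A or T and Y is C or T. Of 35116 promoter windows of this length, 6.57% held the AP-1 motif, 10.7% the TATA box, 32% the CCAAT box, 42.6% the GC box and 5.21% the kappaB motif. The TNFAIP6 window also held 2 matches to the CCAAT box and none to the other motifs, and 34.4% of its bases were G or C.

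TNFAIP6 had 325 counts in I79 young and 9 in I79 old (20.8 and 0.488 CPM), and 343 in I10 young and 53 in I10 old (17.9 and 2.93 CPM). The old tables were far below the young ones in each isolate, and unequally so. The young to old ratio was 42.6-fold in I79 (log2 old over young -5.41, 95% counting interval -6.55 to -4.47) and 6.10-fold in I10 (-2.61, -3.06 to -2.19), and the intervals of the isolates did not overlap. With the isolates as the replicates the log2 fold change was -3.64 (SE 0.62), and its edgeR quasi-likelihood adjusted p of 0.0164 did not pass. The Wald test of DESeq2 called it (adjusted p 3.36e-10). It was also called in edgeR with plain library totals (adjusted p 0.0016), no filter (7.88e-21) and counts rebuilt from TPM (0.00996). Without isolate as a covariate the edgeR call was not made (adjusted p 0.0163). TNFAIP6 stood at 56.1 and 38.3 CPM in WT (1919 and 1430 counts). The HMGB2 KD libraries had 31.8 and 16.6 CPM (1164 and 661 counts). Both HMGB2 KD libraries lay below both WT libraries, and replicates of either group were far apart. The log2 fold change of -0.97 (SE 0.24, edgeR quasi-likelihood adjusted p 0.0204) missed the threshold. In edgeR it passed with plain library totals (adjusted p 0.0084), no filter (5.05e-09), 1 factor of unwanted variation (0.00058) and a replicate block (7.02e-09). With DESeq2 it did not (adjusted p 0.256). Leaving out a library gave -1.22 without WT replicate 2 and -1.52 without HMGB2 KD replicate 1. It gave -0.67 without WT replicate 1 and -0.57 without HMGB2 KD replicate 2.

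PTX3, pentraxin 3, is a secreted pattern-recognition protein that, bound to TSG-6 and heavy chains, cross-links hyaluronan in the matrix. It lies on chromosome 3 (157154639 to 157161422, plus strand, GRCh37) inside VEPH1 on the other strand, and strand use in counting is not stated. Its promoter window is shown beside that of TNFAIP6, its binding partner, and was also chosen after the values were seen. The capitals span 2 overlapping matches to the kappaB motif, at positions -97 to -87.
PTX3 promoter, GRCh37 chr3:157154389-157154638, plus strand: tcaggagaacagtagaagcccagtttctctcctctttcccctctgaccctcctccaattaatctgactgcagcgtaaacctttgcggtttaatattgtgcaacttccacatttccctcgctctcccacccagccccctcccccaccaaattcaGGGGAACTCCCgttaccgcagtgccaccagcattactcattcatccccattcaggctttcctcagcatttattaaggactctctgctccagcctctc
This window held 1 match to the CCAAT box and none to the other motifs, and 51.6% of its bases were G or C. The windows of the binding partners thus shared the CCAAT box but neither the AP-1 nor the kappaB motif.

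PTX3 had 1061 counts in I79 young and 1976 in I79 old (67.9 and 107 CPM), and 1457 in I10 young and 2749 in I10 old (76.0 and 152 CPM). In each isolate the old table was the higher one, opposite to TNFAIP6. The log2 difference was 0.66 (95% counting interval 0.55 to 0.77) within I79 and 1.00 (0.91 to 1.09) within I10. Over the isolates it was 0.83 (SE 0.12, edgeR quasi-likelihood adjusted p 0.0123), just short of the threshold. PTX3 was called with DESeq2 (adjusted p 0.00034), but not with edgeR without isolate as a covariate (adjusted p 0.0239). PTX3 stood at 18.8 and 22.8 CPM in WT (644 and 851 counts), and the HMGB2 KD libraries had 29.0 and 30.6 CPM (1062 and 1219 counts). The HMGB2 KD libraries lay above the WT libraries, again opposite to TNFAIP6, with a log2 fold change of 0.52 that did not pass (SE 0.14, edgeR quasi-likelihood adjusted p 0.0328).

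CD44, the main cell surface receptor for hyaluronan, had the highest level per length of the 7 members in all 10 columns. It lies on chromosome 11 (35160429 to 35253949, plus strand, GRCh37). In I79 it stood at 896 CPM in the young and 1800 CPM in the old table, and in I10 at 910 and 1984 CPM. The young tables were close to each other and the old tables were about equally far above them. The log2 old over young was 1.01 within I79 (95% counting interval 0.98 to 1.04) and 1.12 within I10 (1.10 to 1.15). The fit over the isolates gave 1.07 (SE 0.15), and its edgeR quasi-likelihood adjusted p of 0.0111 did not pass. The call was made with no isolate covariate (adjusted p 0.0060), with counts rebuilt from the deposited TPM (0.0026) and with DESeq2 (2.57e-10). In WT CD44 was at 845 and 1003 CPM (28921 and 37460 counts), and the HMGB2 KD libraries had 1112 and 1160 CPM (40726 and 46239 counts), a log2 fold change of 0.30 (SE 0.15, edgeR quasi-likelihood adjusted p 0.246) that did not pass.

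CD44 is spliced into a short standard form and into longer forms that carry variable exons, and only the young and old tables list transcripts. Of its 38 listed transcripts, 33 had reads in each of these tables. CD44-201, with 9 exons and 361 coding codons, took 41.8% of the gene's TPM in I79 young and 42.8% in I10 young, and 31.2% in I79 old and 31.1% in I10 old. Its own level was nonetheless higher in old tables, at 250 and 264 TPM in young and 403 and 425 TPM in old. The 4 transcripts with a longer coding sequence than CD44-201 together took 4.95% and 4.93% of CD44 TPM in the young tables and 0.987% and 1.50% in the old ones. CD44-207, annotated as a target of nonsense-mediated decay, stood at 19.7% and 17.8% in young and 25.9% and 25.4% in old. These shares lay within 2 percentage points of each other between isolates and further apart between ages, but were estimated from reads that transcripts share and were not tested.

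Among the turnover genes, CEMIP encodes a secreted hyaluronan-binding protein that fibroblasts need to depolymerise hyaluronan. It lies on chromosome 15 (81071684 to 81244117, plus strand, GRCh37), where MESD overlaps it on the other strand. The bases before its RefSeq start are shown because CEMIP was called in both comparisons. The capitals mark the TATA box, at positions -30 to -25 from that start.
CEMIP promoter, GRCh37 chr15:81071461-81071710, plus strand: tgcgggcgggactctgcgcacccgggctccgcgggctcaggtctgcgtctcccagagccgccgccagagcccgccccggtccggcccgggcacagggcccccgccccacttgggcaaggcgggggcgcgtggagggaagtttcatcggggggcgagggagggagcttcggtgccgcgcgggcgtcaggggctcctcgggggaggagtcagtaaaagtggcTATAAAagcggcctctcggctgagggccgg
The window held 3 matches to the GC box and none to the CCAAT box, the AP-1 motif or the kappaB motif, and 74.4% of its bases were G or C. The leading transcript, CEMIP-201, starts in GENCODE at position -27 from the RefSeq start. That position lies inside the TATA box match, so the match spans the start of this transcript.

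CEMIP had 1365 counts in I79 young and 21345 in I79 old (87.4 and 1158 CPM), and 1734 in I10 young and 41337 in I10 old (90.4 and 2285 CPM). The young tables were nearly level, and each old table was far above them, I10 old the highest. CEMIP rose in old cells by 4.20 on the log2 scale (SE 0.29, edgeR quasi-likelihood adjusted p 0.0039). Within I79 the rise was 13.3-fold (log2 3.73, 95% counting interval 3.65 to 3.81) and within I10 25.3-fold (4.66, 4.59 to 4.73), so the isolates differed by more than counting error, a difference that was not tested. CEMIP-201 took between 92.8% and 95.5% of the gene's TPM in the 4 tables, and the next transcript, CEMIP-202, took 2.52% and 3.81% in young and 4.20% and 4.18% in old, so the minor transcript was also higher in old tables.

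In WT CEMIP stood at 2396 and 1549 CPM (82036 and 57845 counts), and the HMGB2 KD libraries had 952 and 624 CPM (34860 and 24898 counts). Both HMGB2 KD libraries lay below both WT libraries, although replicates of either group were far apart, with replicate 1 the higher in each. CEMIP fell by 1.32 on the log2 scale, which is 2.50-fold (SE 0.22, edgeR quasi-likelihood adjusted p 0.0016). Leaving out 1 library at a time gave -0.98 to -1.67. Without HMGB2 KD replicate 2 the log2 fold change was -1.05 and the call was lost (adjusted p 0.0321), as it was with DESeq2 (adjusted p 0.0203).

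HYAL2, a hyaluronidase anchored to the cell surface that cuts long chains into intermediate ones, lies on chromosome 3 (50355221 to 50360213, minus strand, GRCh37) and overlaps TUSC2 on the same strand. In I79 it had 716 counts in the young and 616 in the old table (45.8 and 33.4 CPM), and in I10 it had 801 and 515 (41.8 and 28.5 CPM). The old table was the lower one in each isolate, and the fit gave -0.50 (SE 0.11, edgeR quasi-likelihood adjusted p 0.0299), which did not pass. HYAL2 was called in edgeR with plain library totals (-0.72, adjusted p 0.0060), but not with DESeq2 (adjusted p 0.144). WT libraries had 71.2 and 63.4 CPM, HMGB2 KD libraries 63.7 and 79.1 CPM. These groups overlapped, with a log2 fold change of 0.08 (SE 0.14, edgeR quasi-likelihood adjusted p 0.78) that changed sign without WT replicate 2 and without HMGB2 KD replicate 2.

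The order of CEMIP and HYAL2 differed between ages. In TPM, CEMIP was 0.499 of HYAL2 in I79 young and 0.580 in I10 young, and 9.20 and 21.6 times HYAL2 in the old tables of the same isolates. In CPM per kilobase CEMIP was 8.95 and 6.50 times HYAL2 in WT and 3.97 and 2.10 times in HMGB2 KD. Across all members the order per length in both young tables was CD44, PTX3, HYAL2, TNFAIP6, CEMIP, HAS2 and HAS3. In both old tables CEMIP came second after CD44 and TNFAIP6 came among the last. In WT the order of TNFAIP6 and HYAL2 differed between the libraries, and in HMGB2 KD that of TNFAIP6 and PTX3 did, so those neighbours did not differ beyond the spread.

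**Figure D3:**
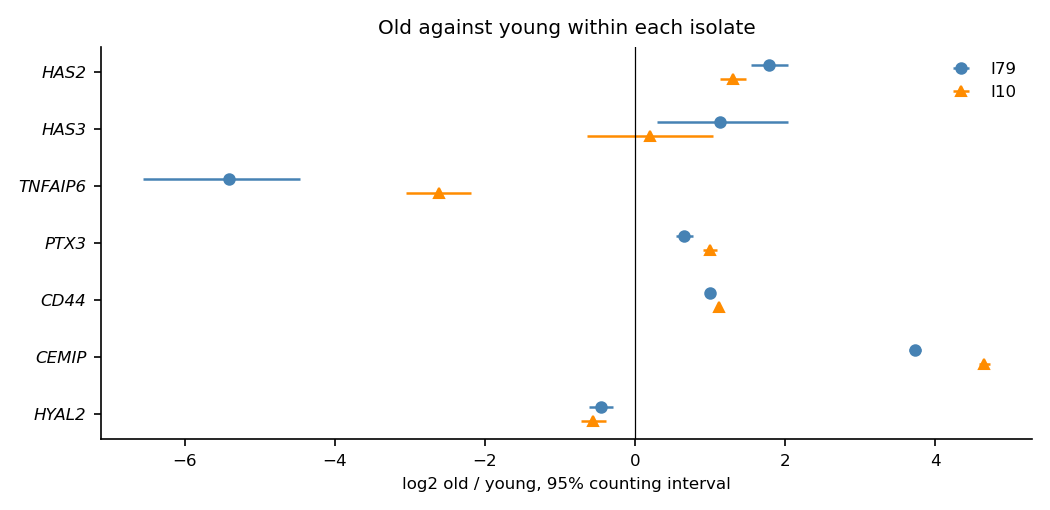
Log2 of old over young CPM within isolate I79 (circles) and isolate I10 (triangles) for the 7 members with counts, with 95% counting intervals as bars. The signs match between isolates for all 7 members, the intervals of the isolates overlap for HAS3 and HYAL2 but not for the other 5, among them CEMIP and TNFAIP6, and the HAS3 interval in I10 spans 0.

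The sugar supply and the partners of hyaluronan were described through 38 further genes of the pathway, grouped as precursor synthesis, receptors, matrix binding partners, turnover and the antisense RNA of HAS2. In old against young 18 of the 38 could be tested, and 4 were called higher and 3 lower, with a median log2 fold change of 0.21, beside 9.36% called and a median of -0.0090 over all tested genes. After HMGB2 knockdown 25 could be tested, and 4 were called, all higher, with a median of 0.32, beside 5.2% called and a median of 0.0018 over all tested genes. DESeq2 also called 4 of these 25. The hyaluronidase SPAM1 was at 0 in every table.

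The precursor synthesis list holds enzymes that make the UDP-sugars the synthases join, and all 7 were tested in both comparisons. In old cells GFPT1, the first enzyme of the hexosamine pathway, rose from 135 and 138 CPM in I79 and I10 young to 228 and 239 CPM in old (log2 fold change 0.77, SE 0.10, edgeR quasi-likelihood adjusted p 0.0095). UAP1, which makes UDP-N-acetylglucosamine, rose from 53.4 and 60.8 to 93.0 and 113 CPM (0.84, SE 0.10, adjusted p 0.0074). GFPT2, which catalyses the same step as GFPT1, fell from 31.7 and 36.6 to 14.9 and 15.7 CPM (-1.16, SE 0.13, adjusted p 0.0068). After HMGB2 knockdown GFPT2 was the only one of the 7 called, and it rose from WT levels of 19.4 and 20.7 CPM to 40.1 and 44.2 CPM (1.07, SE 0.14, adjusted p 0.00025). GFPT2 was thus lower in old cells and higher in knockdown cells, and CEMIP higher in old cells and lower in knockdown cells. The call of GFPT1 was lost with plain library totals (0.56, under the fold threshold) and with counts rebuilt from TPM (adjusted p 0.0106), that of GFPT2 in old cells with counts rebuilt from TPM (adjusted p 0.0189), and that of UAP1 without isolate as a covariate (adjusted p 0.0103).

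Of the 7 other receptors, only HMMR and LAYN could be tested in old against young. LAYN, layilin, rose from 78.0 and 72.3 CPM in the young tables of I79 and I10 to 186 and 183 CPM in old (log2 fold change 1.30, SE 0.10, edgeR quasi-likelihood adjusted p 0.0044). HMMR, a hyaluronan-binding protein that also works at the mitotic spindle, fell from 40.3 and 45.4 to 6.57 and 13.8 CPM (-2.15, SE 0.25, adjusted p 0.0072), and without isolate as a covariate its adjusted p was 0.0123. After knockdown 3 receptors were tested and did not pass. LAYN stood at 81.3 and 88.4 CPM in WT, against 111 and 104 CPM with the knockdown (0.34, adjusted p 0.108), and HMMR at 9.55 and 9.88 against 7.62 and 8.38 CPM (-0.28, adjusted p 0.375). STAB1, a scavenger receptor, had 48 and 115 counts in WT and 119 and 138 in HMGB2 KD (0.58, adjusted p 0.356).

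Of the 15 matrix binding partners, 3 were tested in old against young and 8 after knockdown. VCAN, versican, the large hyaluronan-binding proteoglycan of fibroblast matrix, fell in old cells from 500 and 473 CPM to 92.5 and 71.0 CPM (log2 fold change -2.58, SE 0.14, edgeR quasi-likelihood adjusted p 0.0034). ITIH5, a heavy chain of the inter-alpha-inhibitor family, had 2 and 16 counts in the young tables and 30 and 54 in the old ones, and its 2.39 (SE 0.56, adjusted p 0.0349) did not pass. VCAN did not differ beyond the spread after knockdown, with WT libraries at 966 and 1102 CPM and knockdown libraries at 1137 and 983 CPM. ACAN, aggrecan, rose from 130 and 246 counts in WT to 378 and 658 counts in HMGB2 KD (1.37, SE 0.26, adjusted p 0.0043). HAPLN3, a link protein that fastens such proteoglycans to hyaluronan, rose from 10.5 and 10.6 to 16.7 and 24.6 CPM (0.97, SE 0.18, adjusted p 0.0037). Both calls were lost without HMGB2 KD replicate 2, the higher of the knockdown libraries for each gene (ACAN 0.99, adjusted p 0.0664, and HAPLN3 0.66, adjusted p 0.0399).

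Of the further turnover genes, CEMIP2, a membrane protein related to CEMIP, rose after knockdown from 108 and 136 CPM to 205 and 237 CPM (log2 fold change 0.86, SE 0.15, edgeR quasi-likelihood adjusted p 0.0020), opposite to CEMIP. Its call was lost without WT replicate 1 (0.70, adjusted p 0.0255) and without HMGB2 KD replicate 2 (0.76, adjusted p 0.0169). In old against young CEMIP2 stood at 63.2 and 71.3 CPM in young and 41.7 and 64.1 CPM in old, which overlapped between ages, although within each isolate the old table was the lower (log2 -0.60 in I79, 95% counting interval -0.74 to -0.46, and -0.15 in I10, -0.27 to -0.04). The fit over both gave -0.37 (SE 0.14, adjusted p 0.109), which did not pass. HAS2-AS1, transcribed across HAS2 on the other strand, stood at 0.730 to 0.832 CPM in young and 0.663 to 0.814 CPM in old, where HAS2 itself rose, and at 1.49 and 1.39 CPM in WT against 1.04 and 0.853 CPM with the knockdown (-0.61, SE 0.42, adjusted p 0.419).

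**Figure D4:**
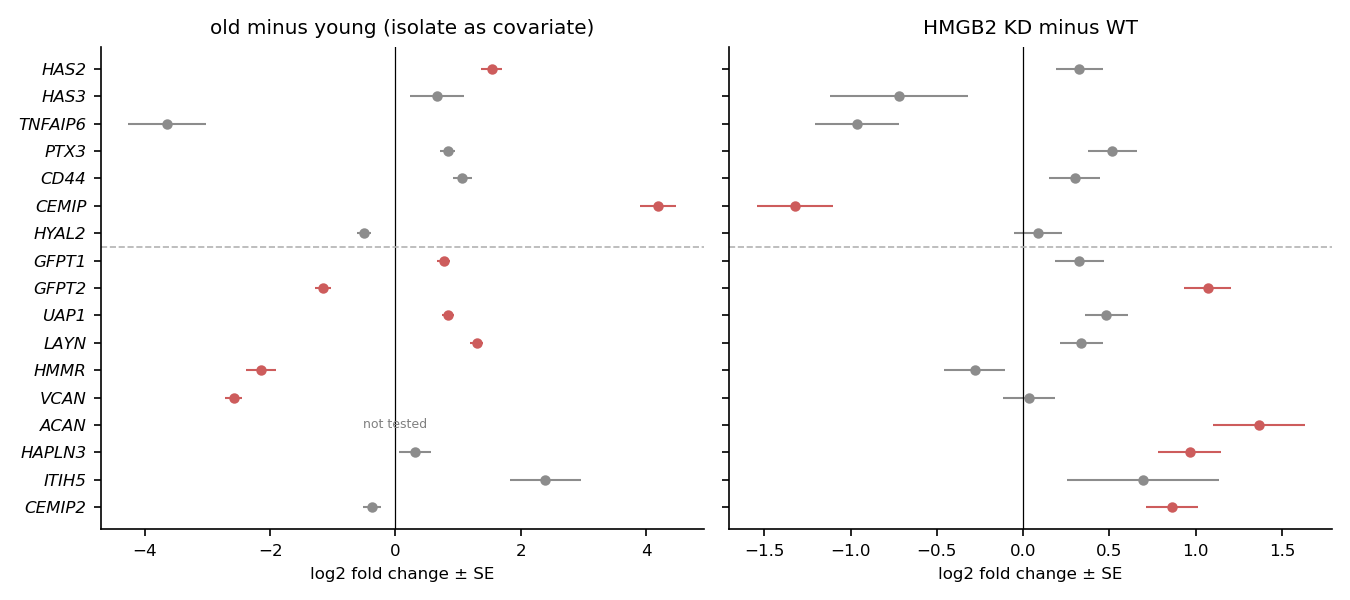
Log2 fold changes with standard errors (bars) in old against young with isolate as covariate (left) and HMGB2 KD against WT (right) for the members (above the dashed line) and the named pathway genes (below it), red where called (adjusted p below 0.01, log2 fold change beyond 0.6 either way). CEMIP is at 4.20 on the left and -1.32 on the right and GFPT2 at -1.16 and 1.07; ACAN was not tested on the left.

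Beside these results, the summed endothelial marker level was 66.3 and 95.9 CPM in the young tables and 167 and 221 CPM in the old ones, with TEK the leading gene, 4 of 5 markers listed and CDH5 at 0, and its part in the old against young differences was not tested. It was 73.2 and 87.0 CPM in WT, and the knockdown libraries had 64.8 and 79.6 CPM. The fibroblast markers summed to 19030 and 25406 CPM in WT, against 28267 and 33923 CPM with the knockdown, and their part in the knockdown differences was not tested either.

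ICM libraries could be set against I79 young only across tables made in different ways, so that treatment and table cannot be told apart. No test was run, and values are CPM over the 24634 genes listed in all 3 kinds of table, with no TMM scaling. Of 14478 genes compared, 60.5% lay past 0.6 on the log2 scale either way in ICM over I79 young (30.2% higher and 30.3% lower), and 44.4% did so in WT over I79 young (21.1% higher and 23.3% lower), a comparison without ICM. Of the 7 members, 3 lay past 0.6 higher and 2 lower in ICM over I79 young. All 10 fibroblast markers were detected in both kinds of table and summed to 12708 and 13003 CPM in the ICM libraries, against 26077 and 27500 CPM in the young tables, and their part in the ICM differences was not tested.

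HAS2 had 14 and 12 reads in the ICM libraries, or 1.11 ± 0.030 CPM (SD, n = 2), against 12.1 CPM in I79 young, a log2 ratio of -3.35, where WT over I79 young gave 0.69. HAS3 had 217 and 194 reads, or 17.6 ± 0.99 CPM (SD, n = 2), against 1.24 CPM, a log2 ratio of 3.73, where WT over I79 young gave 0.49. For these synthases the ICM ratio was thus far from the ratio of WT to I79 young, on opposite sides. In the ICM libraries 58.1% and 59.3% of HAS3 reads lay in the 3′ untranslated region, against 25.2% and 24.2% over all genes. The leading HAS3 transcript, HAS3-202, holds 1659 coding bases in a length of 4220 bases. With untranslated-region reads left out of the ICM libraries only, the HAS3 log2 ratio was 3.05 and that of HAS2 -3.60. I79 young kept all its reads, so these ratios set unlike parts of the transcript side by side. HAS2-AS1 was given 14 and 12 reads too, the same totals as HAS2, and whether the same reads were counted for both was not tested.

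CD44 stood at 2465 ± 27.5 CPM (SD, n = 2) in ICM against 1021 CPM in I79 young, a log2 ratio of 1.27, where WT over I79 young gave -0.03. With untranslated-region reads left out of the ICM libraries but not of I79 young, its ratio was 0.82. TNFAIP6 stood at 41.1 ± 9.6 CPM (SD, n = 2) against 23.7 CPM (0.77) and PTX3 at 35.3 ± 1.1 CPM (SD, n = 2) against 77.4 CPM (-1.13). For both the sign turned when WT served as the reference, to -0.31 for TNFAIP6 and 0.65 for PTX3, so their direction depended on the reference table used. HYAL2 stood at 63.2 ± 1.1 CPM (SD, n = 2) against 52.3 CPM (0.27), and at -0.20 with WT as the reference.

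CEMIP had 1134 and 1281 reads in the ICM libraries, or 104 ± 23 CPM (SD, n = 2), against 99.6 CPM in I79 young, a log2 ratio of 0.05 that is smaller than the spread between the ICM libraries. Against I79 old it was -3.51 and against WT -4.34. WT itself stood at 4.39 above I79 young, at 2140 CPM, higher than the 1175 CPM of I79 old on the same scale. The 2 ICM libraries, at 88.1 and 121 CPM, thus lay on either side of I79 young and far below I79 old. The isolate and passage of the WT libraries are not given.

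Of the 38 further pathway genes 25 could be compared, and 11 lay past 0.6 higher and 5 lower in ICM over I79 young. Over all compared genes the shares were 30.2% and 30.3%. A gene was compared if it had at least 10 counts in I79 young, in both ICM libraries or in both WT libraries. Some of these ratios therefore rest on few counts. STAB1 and ITIH5, among the higher, had 0 and 2 counts in I79 young. ACAN, among the lower, had 3 counts there and 0 reads in both ICM libraries. VCAN stood at 10.95 ± 0.88 CPM (SD, n = 2) in ICM against 570 CPM in I79 young (-5.69), and HMMR at 0.701 ± 0.33 CPM (SD, n = 2) against 45.9 CPM (-5.93). The HMMR value rests on 12 and 5 reads in the ICM libraries. WT over I79 young gave 0.97 for VCAN and -2.11 for HMMR. UAP1 stood at 161 ± 3.3 CPM (SD, n = 2) against 60.9 CPM (1.40) and LAYN at 264 ± 6.9 CPM (SD, n = 2) against 88.9 CPM (1.57), with -0.24 and 0.05 in WT over I79 young. GFPT2 stood at 20.7 ± 0.88 CPM (SD, n = 2) against 36.1 CPM (-0.80), where WT over I79 young gave -0.73.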

How the data were processed

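Poly(A) RNA of IMR90 cells was sequenced by the authors in 7 groups, taken here from the sample titles. The WT and HMGB2 KD tables, as the authors deposited them, hold raw counts of reads for each gene symbol, and the submitters' processing notes name STAR 2.6.0c, featureCounts and GRCh37, while the tables end with summary entries (16.9% to 18.0% of totals, left out) that another counter writes. For young and old cells the authors deposited estimated counts and TPM (abundance scaled to transcript length and library size) per transcript, 1 table per group. For ICM they deposited estimated counts per gene and transcript region. The quantifier of the young and old tables and the aligner and build of the ICM tables are not given in the sources used here.

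Transcripts were summed per gene with GENCODE (GRCh37), which matched 97.7% of them and 97.2% to 97.4% of reads, and rounded. Differences were tested across all genes by edgeR 4.0.16 (R 4.3.3), with TMM scaling, filterByExpr, the quasi-likelihood test and Benjamini-Hochberg adjustment, and genes were called with an adjusted p below 0.01 and a log2 fold change beyond 0.6 in either direction, as in the study's methods. HMGB2 KD libraries were fitted against WT libraries (2 against 2) without covariates, and old against young tables with isolate as covariate (1 residual degree of freedom). Standard errors are the log2 fold change over the square root of F. Within isolates, 95% exact Clopper-Pearson intervals on the old table's share of counts were rescaled by library size. ICM was set against I79 young on log2 CPM (prior count 2), with each column scaled to its own total over the shared genes. This scaling cannot remove differences in counting. Genes were compared with at least 10 counts in I79 young, in both ICM libraries or in both WT libraries. Levels per length use deposited TPM, or CPM over the mean effective transcript length of the young and old tables. Promoters came from RefSeq (GRCh38.p14 table, 7 of 8 members matched) and each was placed on GRCh37 by its only exact match. Reads carry no molecular identifiers.

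All 8 members are named. Other pathway genes are named where called, where they missed the threshold with an absolute log2 fold change over 1, where at 0 in every table, or as values beside these, and 1 gene included in the counts is not reported here. The members and lists were chosen with earlier results of these data known. The scripts were tested on simulated data. Replicate counts differed beyond sampling noise, with a chi-square of 24.7 per degree of freedom in WT and 37.6 in HMGB2 KD. Alternatives were DESeq2 1.42.0, plain library totals, no filter, an adjusted p under 0.05, a replicate block, 1 factor of unwanted variation (RUVs), no isolate covariate, counts rebuilt from TPM, ICM without untranslated regions or against WT, and each library left out in turn.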

Additional observations from a re-analysis of the deposited data

How the results depend on the processing

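CEMIP kept its sign in every alternative of both tests. After HMGB2 knockdown the members called numbered 1, against 0 with DESeq2, 2 with plain library totals, no filter, an adjusted p under 0.05 or 1 RUVs factor, and 0 to 2 leaving out 1 library at a time. The further pathway genes called numbered 4, and 1 to 4 with a library left out. All genes called numbered 797, and 312 (without HMGB2 KD replicate 2) to 999 with a library left out. Fits that left 1 library in a group assume that it varies like the other group. In old against young the members called numbered 2, against 5 with DESeq2, no filter or an adjusted p under 0.05, 6 with plain library totals and 4 with counts rebuilt from TPM, and the further pathway genes called numbered 7, and 5 to 9 over the alternatives. All genes called numbered 1416, against 2159 with DESeq2, 3148 with plain library totals, 4257 with no filter and 3846 at an adjusted p under 0.05. Plain library totals turned the split of 856 higher and 560 lower into 1026 and 2122, with a median log2 fold change of -0.22 over all genes, and in the knockdown 438 and 359 into 385 and 484. HYAL2 after knockdown ranged from -0.076 (without HMGB2 KD replicate 2) to 0.22 with a library left out, and was -0.0013 without WT replicate 2, and ICM over WT gave -0.31 for TNFAIP6 and 0.65 for PTX3. The causes were not tested. HAS3 had 17 to 61 counts outside ICM, and at that depth its counting interval within I10 spanned 0.

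A replicate block called 1243 genes and 2 members (TNFAIP6 with CEMIP) after knockdown. The replicate numbers carry no stated pairing, and deviations of equal-numbered libraries correlated at 0.12 over 15338 genes, so the block was kept as an alternative.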

Other observations

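The genes whose levels followed each member most closely were sought among 12761 genes over the 8 columns of young, old, WT and HMGB2 KD, each value centred on the mean of its own kind of table. These columns share their tables and depths, so the correlations are descriptions. CEMIP was most alike to USP53 and LY96 (Pearson r 0.993 and 0.992), HAS2 to MAP3K7CL and MAP7 (0.991 and 0.989), HAS3 to CEBPD and RBL2 (0.980 for both), and TNFAIP6 to SYMPK and VCP (0.994 and 0.993). PTX3 was most alike to TANGO2 and GLUD1 (0.994 and 0.993), CD44 to NIPAL3 and CAMK2D (0.997 for both) and HYAL2 to KDM8 and RNF26 (0.994 and 0.987). An r over 0.95 was reached by 22 genes for HAS3, 36 for HYAL2, 68 for HAS2, 122 for PTX3, 146 for CEMIP, 256 for TNFAIP6 and 398 for CD44.

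The ICM tables split reads by transcript region. Of TNFAIP6 reads 81.0% and 80.2% lay in the coding region in the 2 libraries, of HYAL2 reads 81.2% and 83.6%, and of PTX3 reads 75.9% and 81.7%, against 61.1% and 61.9% over all genes. CD44, at 45.5% and 49.3%, and HAS3, at 41.5% and 39.2%, lay below that level, and CEMIP lay below it at 54.1% and 55.1%. In HYAL2, which has 5 transcripts with reads, HYAL2-201 took 72.0% of the gene's TPM in I79 young. It took 25.2% to 29.3% in the other 3 young and old tables. HYAL2-202, with a coding sequence of the same length, took 18.6% in I79 young and 63.8% to 65.5% in the other 3.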
